A study of Danio rerio with 30 samples.

Results

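The microRNA miR-122 was followed through 30 small-RNA libraries of adult zebrafish spleen. It was taken as the row named dre-miR-122, which is 1 of 8866 rows of the deposited count table and 1 of the 364 rows tested. miR-122 is the defining miRNA of hepatocytes in vertebrates. In mammalian liver it makes up most of the miRNA, it affects cholesterol and lipid metabolism, and it is released into blood when hepatocytes are damaged. The spleen filters blood and stores leukocytes and red cells, and in zebrafish it lies in the body cavity next to liver, gut and pancreas. Reads of miR-122 in a spleen library could come from spleen cells, from blood or from neighbouring tissue, and these sources cannot be told apart here. In RNA of whole organs, fewer cells of a type and less RNA per cell cannot be told apart either.

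The fish were of the AB laboratory strain and 100 days old. Embryos and larvae had been held at 24, 28 or 32 °C, and adults at 28 °C, per the labels' protocols. Those adults may be the fish sampled or the parent stock, which the protocols leave unclear. At each of these 3 temperatures 5 libraries came from controls and 5 from fish given lipopolysaccharide (LPS) of Pseudomonas aeruginosa, a bacterial outer-membrane component that starts an innate immune response. A volume of 2 µl of a 50 mg/ml solution was injected intraperitoneally, and spleens were collected after 12 h. Whether controls were injected, which sex the fish had, and whether each library is a separate fish were not stated in the labels, so the p-values reflect the variation among these libraries, which may be technical. No genotype or transgene is named, and the 6 groups share strain, age and tissue. The design asks for effects of early temperature on adult splenic miRNAs, for effects of LPS, and for an interaction of both.

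Library totals ran from 199431 to 7584818 counts (median 695337), and the median total was 352753.5, 697494 and 1066364 at 24, 28 and 32 °C (n = 10 each). Values are given as CPM, a row's count after each library is scaled to a total of 1000000 counts. Families of miRNAs of leukocytes and red cells, which the spleen stores, were measured in each library. Blood holds these cells too, so their shares do not test the spleen label. The leukocyte families miR-142, miR-150 and miR-223 held 0.533 to 3.08% of the counts of each library. The red-cell families miR-144 and miR-451 held 0.136 to 5.19%. miR-486, the third red-cell family looked for, was at 0 in all libraries.

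miR-122 was counted in all 30 libraries, with 10 counts in the library with the fewest and 72198 in that with the most. Its mean was 4228 ± 8485 CPM (SD, n = 30), which placed it 19th of the 161 tested zebrafish rows. miR-16b, a cell-cycle repressor in mammals, stood just above at 4936 CPM, and miR-25-3p, of a proliferation-linked family, just below at 4019 CPM. That average came from few libraries. Of the CPM of miR-122 summed over the 30 libraries, replicate 7 of the 32 °C LPS fish gave 30.5% and replicate 9 of the 32 °C controls 22.6%. The first 6 libraries by CPM gave 77.0%. Libraries at 32 °C gave 76.1% of the sum, those at 28 °C 13.3% and those at 24 °C 10.6%. In raw counts, which follow library totals too, the largest share was the 29.5% of replicate 7 of the 32 °C controls.

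In controls incubated at 24 °C, miR-122 stood at 3067 CPM in replicate 1, 125.9 in replicate 3, 2192 in replicate 5, 1771 in replicate 8 and 956 in replicate 9. The mean was 1623 ± 1131 CPM (SD, n = 5), with replicate 3, where 54 counts were seen, far below the others. In LPS fish incubated at 24 °C, it stood at 2188 CPM in replicate 1, 1476 in replicate 2, 501 in replicate 3, 548 in replicate 6 and 639 in replicate 8, a mean of 1071 ± 741 CPM. These 2 groups overlapped: 4 of 5 controls lay above the median of the LPS libraries, and 1 LPS library lay above the median of the controls.

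In controls incubated at 28 °C, the temperature at which adults were held, miR-122 stood at 514 CPM in replicate 1, 442 in replicate 2, 978 in replicate 3, 1059 in replicate 5 and 1771 in replicate 7. This was the narrowest group, with a mean of 953 ± 532 CPM and a 4.00-fold range. In LPS fish incubated at 28 °C, it stood at 38.0 CPM in replicate 1, 3137 in replicate 2, 943 in replicate 4, 510.0 in replicate 5 and 7431 in replicate 8, a mean of 2412 ± 3047 CPM. That group spanned a 196-fold range and held the lowest library of the study. Its replicate 1 had 10 miR-122 counts (exact 95% binomial interval 18.2 to 69.8 CPM, counting error only), so counting error does not reach the next lowest library.

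In controls incubated at 32 °C, miR-122 stood at 3475 CPM in replicate 3, 1968 in replicate 6, 9519 in replicate 7, 9985 in replicate 8 and 28619.5 in replicate 9. The mean was 10713 ± 10624 CPM, and all 5 libraries lay above the highest control at 28 °C. How many other rows did so was not counted. In LPS fish incubated at 32 °C, it stood at 283 CPM in replicate 1, 847 in replicate 2, 727 in replicate 3, 2498 in replicate 5 and 38639 in replicate 7. The mean of 8599 ± 16814 CPM rested on replicate 7, in which miR-122 was the fifth most abundant row and held 3.86% of the counts. The other 4 lay within the range of the libraries at 24 °C.

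**Figure D1:**
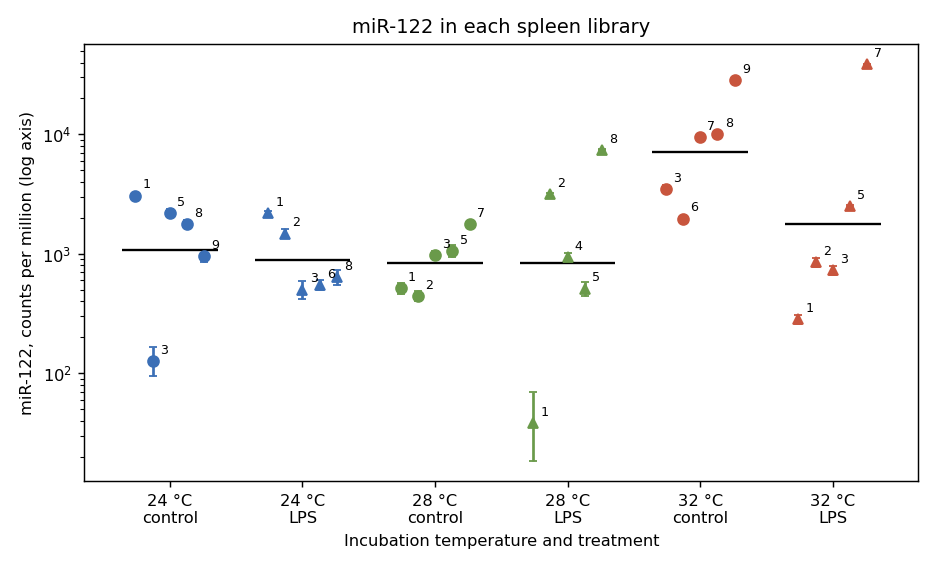
CPM of miR-122 in each spleen library on a log axis, by incubation temperature and treatment, with 5 libraries a group. The 5 controls at 32 °C sit between 1968 and 28619.5 CPM, above all 5 controls at 28 °C (442 to 1771 CPM), while the LPS fish at 32 °C spread from 283 to 38639 CPM. Overlap of other rows was not counted.

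Ordered by geometric mean from low to high, the groups were the 28 °C controls (839 CPM), the 28 °C LPS fish (843), the 24 °C LPS fish (893), the 24 °C controls (1075), the 32 °C LPS fish (1759) and the 32 °C controls (7143). Each pair of neighbours in this order overlapped. The 28 °C and 32 °C controls had no value in common, and 4 of 5 controls at 32 °C lay above the highest 24 °C control. The share of all rows without overlap between these groups was not counted, so the separation is not shown to be particular to miR-122. The median tested row was 0.86 higher (log2, edgeR) in 32 °C than in 28 °C controls. Levels of 5000 CPM or more were seen in 0, 1 and 4 of the 10 libraries at 24, 28 and 32 °C, and levels of 1000 CPM or more in 5, 4 and 7. miR-122 was among the 20 most abundant rows in 0, 1 and 4 libraries. Over both treatments the medians at 24, 28 and 32 °C were 1216, 960.5 and 2986 CPM.

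Libraries of 1 group differed widely in this miRNA. The pooled SD within groups was 1.92 on the log2(CPM + 10) scale, the fourth highest of the 76 tested rows counted in all 30 libraries, whose SDs ran from 0.44 to 2.15 with a median of 1.20. The biological coefficient of variation fitted by edgeR was 1.07 for miR-122 and 0.906 at the median of those rows.

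Between incubation temperatures, the mean level of miR-122 averaged over treatments was higher at 32 °C than at 24 °C and 28 °C. The medians did not show this in both treatments. They were 1771, 978 and 9519 CPM in controls at 24, 28 and 32 °C, and 639, 943 and 847 CPM in LPS fish (n = 5 each). The calls also depended on settings and single libraries, as given further on. Averaged over treatments, the mean level at 32 °C was 8.97-fold that at 24 °C (95% interval 3.14 to 25.6), and 7 of 10 libraries at 32 °C lay above the 24 °C control median. The log2 difference was 3.16 ± 0.73 (SE; edgeR quasi-likelihood test with Benjamini-Hochberg adjustment over 364 rows, adjusted p = 0.00389). In that comparison 16.5% of all rows passed the threshold of 0.05 and 14.0% of all rows passed as higher, and miR-122 had the tenth smallest p. The level at 32 °C was 6.94-fold that at 28 °C (95% interval 2.47 to 19.5), a log2 difference of 2.80 ± 0.72 (edgeR, adjusted p = 0.0250), where 2.75% of all rows passed and 2.20% passed as higher. The 24 °C and 28 °C libraries could not be separated (28 minus 24 °C, 0.37 ± 0.68 on the log2 scale, 95% interval -1.03 to 1.77, edgeR adjusted p = 0.844). No row passed in that comparison with edgeR, 55 rows had an unadjusted p under 0.05, and DESeq2 called 35 rows and limma voom 5. A joint test of the 3 temperatures gave an edgeR adjusted p of 0.00144, with 18.4% of all rows passing.

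The scaling of libraries enters these values, because the rows as a whole were not centred on 0. After TMM scaling, which aligns libraries on rows taken as unchanged, the median of all tested rows was 0.81 higher at 32 °C than at 24 °C and 0.83 higher than at 28 °C (log2). Relative to those medians, miR-122 was 2.36 and 1.97 higher. With scaling by RLE, upper quartile, total counts or TMMwsp, miR-122 lay 2.38 to 2.68 above the median row for 32 against 24 °C and 1.91 to 2.21 above it for 32 against 28 °C.

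The call between 32 and 28 °C moved with these settings. miR-122 remained higher, by 2.32 to 2.66 on the log2 scale, but missed the threshold with RLE, upper-quartile, total-count and TMMwsp scaling and with zebrafish rows alone. The call between 32 and 24 °C held under these 5 settings, and was lost with the log2 library total as a covariate (2.40, edgeR adjusted p = 0.0861). It was also lost, together with the joint call of temperature, in a fit with the replicate numbers as a block. Median totals were highest at 32 °C, and fits without the deepest libraries are given further on.

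Within controls alone, the log2 difference was 3.17 ± 1.04 between 32 and 24 °C (edgeR, adjusted p = 0.0963, 0.824% of all rows passing) and 3.85 ± 1.07 between 32 and 28 °C (adjusted p = 0.143, 0% passing). The second was the smallest p of all 364 rows, of which 75 had an unadjusted p under 0.05. Neither passed with edgeR, while DESeq2 called both (2.69, adjusted p = 0.0385, and 3.46, adjusted p = 0.00964) and limma voom called both (3.64, adjusted p = 0.00909, and 4.07, adjusted p = 0.0107). Between 32 and 28 °C controls these tools called 14 and 45 rows in all. Their totals between 32 and 24 °C controls are not given here, so those calls are not shown to be particular to miR-122. Between 28 and 24 °C the controls differed by -0.68 ± 0.96 (edgeR, adjusted p = 0.884).

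Within LPS fish, the log2 difference was 3.16 ± 1.04 between 32 and 24 °C (edgeR, adjusted p = 0.11, 0.549% of rows passing), 1.74 ± 0.98 between 32 and 28 °C (adjusted p = 0.614) and 1.42 ± 0.97 between 28 and 24 °C (adjusted p = 0.696). DESeq2 called the first of these (2.85, adjusted p = 0.0434). The total of rows that DESeq2 called there is not given here, so that call is not shown to be particular to miR-122. These differences in LPS fish rested on few libraries, as given further on.

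**Figure D2:**
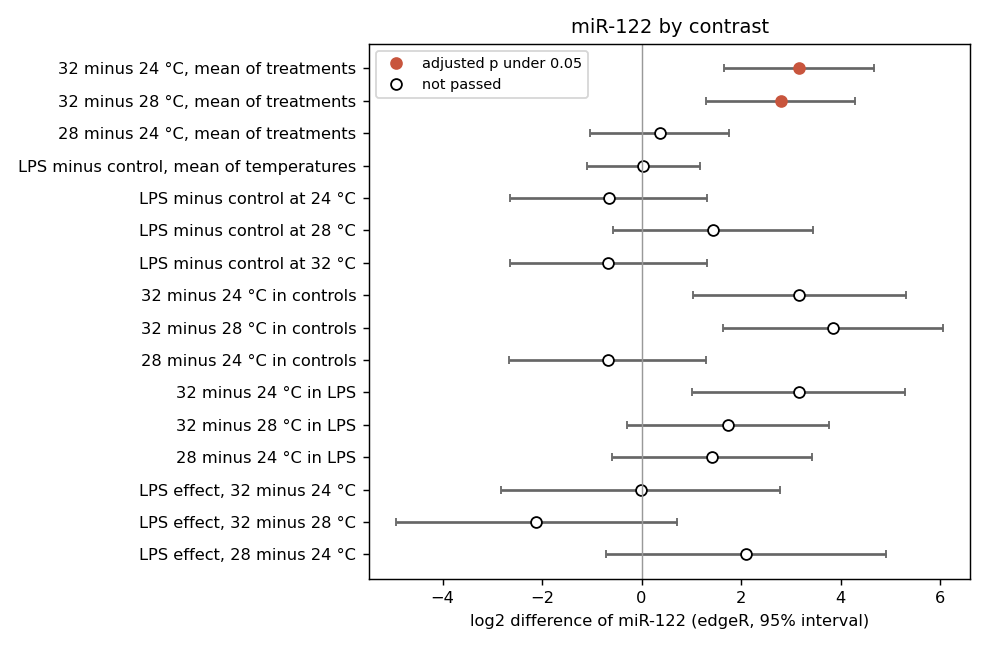
Log2 difference of miR-122 in each contrast from the edgeR fit of all 30 libraries, with points for estimates and bars for 95% intervals. The 2 contrasts of 32 °C averaged over treatments, at 3.16 and 2.80, lie above 0 and pass the adjusted threshold, whereas every contrast of LPS against control has an interval that includes 0.

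A permutation test with no model of counts, on log2(CPM + 10), gave smaller differences. It weighs libraries on the log scale, so that the richest libraries count for less than in a group mean. Pooled over treatments, 32 °C was 1.84 above 24 °C (two-sided permutation test, 100000 draws, p = 0.0450, adjusted p = 0.104 over 9 comparisons) and 2.04 above 28 °C (p = 0.0460, adjusted p = 0.104). In controls the difference was 2.71 from 24 °C (exact permutation test, p = 0.0238, adjusted p = 0.104) and 3.07 from 28 °C (exact p = 0.00794, the smallest that 5 against 5 libraries allow, adjusted p = 0.0714). In LPS fish it was 0.98 from 24 °C (exact p = 0.579, adjusted p = 0.881) and 1.00 from 28 °C (exact p = 0.587, adjusted p = 0.881). None of the 9 comparisons passed after adjustment. With TMM-scaled CPM the pooled and the control differences of 32 °C from both other temperatures passed (2.34, 2.34, 3.10 and 3.39, adjusted p from 0.0476 to 0.0489).

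No difference of miR-122 between LPS and control passed the threshold. Averaged over temperatures, LPS minus control was 0.04 ± 0.55 on the log2 scale (95% interval -1.10 to 1.18; edgeR, adjusted p = 1), where 0.549% of all rows passed. The interval runs from 0.466-fold to 2.26-fold, so these data do not tell changes within it from no change. It is not a limit of detection, and larger changes can also miss the adjusted threshold. By temperature it was -0.66 ± 0.96 in fish of 24 °C (edgeR, adjusted p = 1), 1.44 ± 0.97 in those of 28 °C (adjusted p = 0.621) and -0.67 ± 0.96 in those of 32 °C (adjusted p = 0.999), and 0% of all rows passed at any single temperature, with 44, 48 and 7 rows at an unadjusted p under 0.05. DESeq2 called 21, 18 and 1 rows and limma voom 0, 4 and 1, and miR-122 was not among them. The value at 32 °C depended on the tool: limma voom with library weights, which counts the more variable libraries for less, put LPS at -2.81 against control (unadjusted p = 0.000994, adjusted p = 0.0724). The other 15 alternatives that left out no single library gave -1.49 to -0.16, and the adjusted p over all 16 ran from 0.0724 to 1. On the log2(CPM + 10) scale the 3 differences were -0.28, 0.06 and -2.01 (exact permutation tests, p = 0.778, 0.976 and 0.198, adjusted over 3 p = 0.976, 0.976 and 0.595). At 32 °C, 3 of 5 LPS libraries lay below the lowest control, and 1 lay above the highest.

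The response to LPS was not shown to depend on temperature. The LPS difference at 28 °C exceeded that at 24 °C by 2.10 ± 1.37 (edgeR, adjusted p = 0.645), and that at 32 °C fell short of that at 28 °C (-2.11 ± 1.37, adjusted p = 0.698). Between 32 and 24 °C it differed by -0.01 ± 1.36 (95% interval -2.82 to 2.79, adjusted p = 1). The joint test of the interaction gave an edgeR adjusted p of 0.785, with 0% of all rows passing, 44 at an unadjusted p under 0.05, and 1 row called by DESeq2 and 2 by limma voom.

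Replicate 7 of the 32 °C LPS fish carried much of the difference in that group. Without it, and with the scaling and rows of all 30 libraries kept, 32 minus 24 °C averaged over treatments was 2.03 on the log2 scale and still passed (edgeR, adjusted p = 0.0246), whereas 32 minus 28 °C was 1.66 and did not (adjusted p = 0.103). In LPS fish alone the difference from 24 °C was 0.89 without it, and that from 28 °C changed sign to -0.53. LPS minus control at 32 °C went from -0.67 to -2.94 (adjusted p = 0.990). Leaving out each of the 30 libraries in turn kept the call between 32 and 24 °C in 30 of 30 fits (2.03 to 3.44). With the scaling recomputed for each set of libraries it also held in 30 of 30 (2.09 to 3.77). The call between 32 and 28 °C held in 25 of 30 fits with the scaling kept (1.66 to 3.33) and in 14 of 30 with it recomputed (1.02 to 2.90). With the scaling kept it was lost without replicate 2 of the 28 °C controls (2.72), replicates 4 (2.69) and 5 (2.66) of the 28 °C LPS fish, replicate 9 of the 32 °C controls (2.50) and, as given above, replicate 7 of the LPS fish. In the 28 °C LPS fish, removing replicate 8 took LPS minus control from 1.44 to 0.37.

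**Figure D3:**
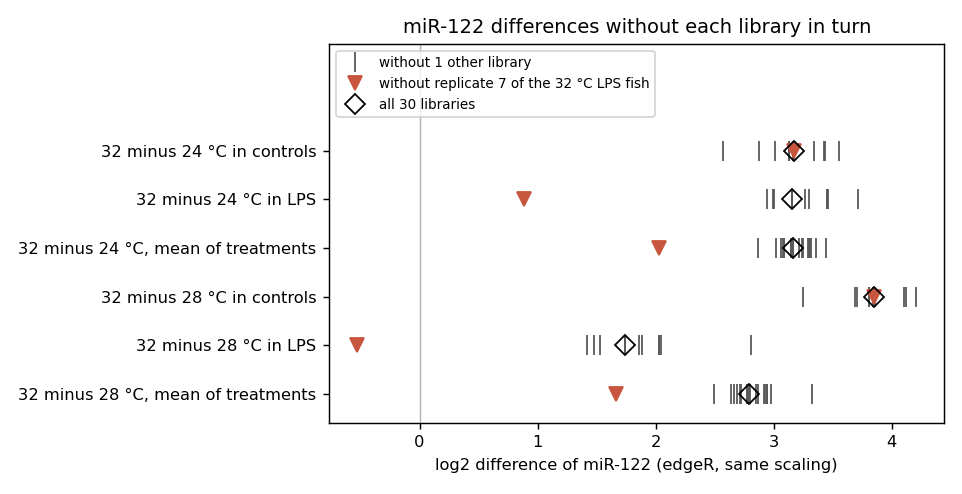
Log2 difference of miR-122 from edgeR for 6 contrasts, recomputed without each library in turn with the scaling of all 30 libraries kept. The values for 32 against 24 °C averaged over treatments run from 2.03 to 3.44, and the lowest, without replicate 7 of the 32 °C LPS fish, lies apart from the others.

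The level of miR-122 was compared with library totals, whose medians differed between temperatures. Over all 30 libraries, log2(CPM + 10) of miR-122 and log2 total had a Pearson r of 0.445 (permutation test, p = 0.0143, adjusted p = 0.0412 over 4) and a Spearman rho of 0.385 (p = 0.0368, adjusted p = 0.147). Without the 2 libraries farthest from the median total r was 0.395. Within the 24 °C libraries r was 0.163 and within the 32 °C libraries 0.111, while at 28 °C it was 0.762 (permutation test, p = 0.0206, adjusted p = 0.0412, n = 10 each). The relation at 28 °C rested on 2 libraries, without which r was 0.226. Without the 4 deepest libraries, of which 3 were incubated at 32 °C, 32 minus 24 °C was 3.01 on the log2 scale and passed (edgeR, adjusted p = 0.0229), and 32 minus 28 °C was 2.98 and did not (adjusted p = 0.0869). Without the 2 deepest, both at 32 °C, these were 3.21 (adjusted p = 0.0174) and 2.84 (adjusted p = 0.157).

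Ratios within a library do not depend on scaling between libraries. For every 100 counts of the leukocyte families miR-142, miR-150 and miR-223, which mark blood and lymphoid cells, the 24, 28 and 32 °C libraries had 5.18, 6.51 and 32.7 counts of miR-122 (geometric means, n = 10 each). The log2 ratio was 2.66 higher at 32 than at 24 °C (two-sided permutation test, 100000 draws, p = 0.00348, adjusted p = 0.0104 over 3) and 2.33 higher than at 28 °C (p = 0.0185, adjusted p = 0.0277). The second call depended on single libraries: it was lost on leaving out replicate 1 of the LPS fish at 28 °C (1.79), or either of the libraries richest in miR-122, replicate 9 of the controls (2.07) and replicate 7 of the LPS fish (2.02) at 32 °C. The 28 and 24 °C libraries differed by 0.33 (permutation test, p = 0.682, adjusted p = 0.682).

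The share of the leukocyte families was lowest at 32 °C on average, so this ratio moves with both its parts. Their share was 2.02 ± 0.66%, 1.41 ± 0.55% and 1.18 ± 0.45% of the counts (SD) in the 24, 28 and 32 °C libraries. After TMM scaling, 7 of their 9 tested rows had a log2 difference above 0 between 32 and 24 °C, beside 62.9% of all rows. That sign does not show whether a row's share fell, because the rows as a whole were not centred on 0. The median of the 9 was 0.26, beside 0.81 for all rows. None of the 9 passed as higher, and 1 passed as lower, beside 2.47% of all rows. It was oni-miR-150, a row named after the Nile tilapia form of a lymphocyte miRNA. It averaged 10893 ± 4447 CPM at 24 °C and 3373 ± 2609 CPM at 32 °C, a log2 difference of -1.28 ± 0.43 (edgeR, adjusted p = 0.0309). A second miR-150 row, gmo-miR-150-5p, named after Atlantic cod, averaged 4417 ± 1486 and 3072 ± 1792 CPM and differed by 0.01 ± 0.42 (adjusted p = 0.988).

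Against the red-cell families miR-144 and miR-451, the ratios were 23.5, 17.1 and 72.3 miR-122 counts per 100 at 24, 28 and 32 °C. The log2 ratio was 1.62 higher at 32 than at 24 °C (permutation test as above, p = 0.104, adjusted p = 0.156) and 2.08 higher than at 28 °C (p = 0.0484, adjusted p = 0.145). Neither passed. Of 5 tested red-cell rows, 2 passed as higher at 32 than at 24 °C, where 14.0% of all rows did, among them miR-144-5p, from the precursor of an erythroid miRNA, at 2.71 ± 0.82 (edgeR, adjusted p = 0.0191). The median log2 difference of the 5 rows was 2.47, beside 0.81 for all rows. miR-451, the most abundant of them at 5028 ± 6546 CPM (SD, n = 30), differed by 1.49 ± 0.63 and did not pass (adjusted p = 0.103). The part of blood in the miR-122 difference was not tested.

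**Figure D4:**
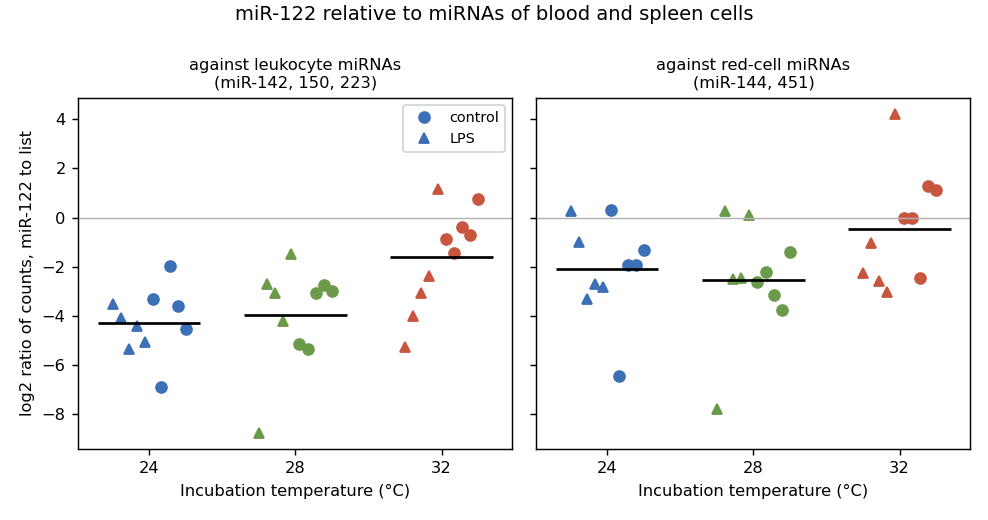
Log2 ratio of miR-122 counts to the summed counts of leukocyte miRNAs and of red-cell miRNAs in each library, by incubation temperature, with 10 libraries a temperature. Lines mark means, which against leukocyte miRNAs were -4.27, -3.94 and -1.61 for the 24, 28 and 32 °C libraries. The medians there were -4.25, -3.06 and -1.16, and libraries of all 3 temperatures overlapped.

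Families that liver shares with gut, miR-192 and miR-194, are expressed in both organs and were set beside miR-122. They were scarce, at 0 to 1.05% of a library with a median of 0.0191%, and 14 of their 53 rows had any count. The 2 libraries richest in miR-122 also held the 2 highest shares. Replicate 9 of the 32 °C controls had 1.05% and replicate 7 of the 32 °C LPS fish had 0.266%. The next richest in miR-122 did not stand out in the same way, with 0.0220% in replicate 8 and 0.0586% in replicate 7 of the 32 °C controls and 0.00971% in replicate 8 of the 28 °C LPS fish. Both families were at 0 in replicates 3 and 6 of the 32 °C controls, which had 3475 and 1968 CPM of miR-122, and in replicate 1 of the 28 °C controls.

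The main rows of that group were gmo-miR-192-5p, with 5669 CPM in replicate 9 of the 32 °C controls and 1465 CPM in replicate 7 of the 32 °C LPS fish, and dre-miR-192, with 4229 and 594 CPM. Each was counted in 18 of 30 libraries. Over the 3 tested rows 0 passed between 32 and 24 °C and 0 between 32 and 28 °C, and their smallest adjusted p were 0.159 and 0.0853 (edgeR). Of all rows 16.5% and 2.75% passed in these comparisons, so a count of 0 in 3 rows does not set them apart. The 3 tested rows were all of miR-192. The summed share of miR-192 and miR-194 had medians of 0.0299, 0.0145 and 0.0112% at 24, 28 and 32 °C (n = 10 each). Its means were 0.0455, 0.0274 and 0.146%, so the mean was highest at 32 °C and the median lowest. The median log2 difference of the 3 tested rows was 1.79 from 24 °C and 4.14 from 28 °C, beside 0.81 and 0.83 for all rows. In each comparison 2 of the 3 lay above 0. Errors were wide, with 3.37 ± 1.69 and 4.14 ± 1.75 for gmo-miR-192-5p and 1.79 ± 1.51 and 4.95 ± 1.73 for dre-miR-192. Per 100 counts of miR-192 and miR-194, the 32 °C controls had 271 (replicate 9), 1625 (replicate 7) and 4530.0 (replicate 8) miR-122 counts. Replicate 7 of the 32 °C LPS fish had 1453, and replicate 8 of the 28 °C LPS fish had 7653. The proportion between these families was thus not constant, although replicate 7 of the 32 °C controls and replicate 7 of the 32 °C LPS fish were close. The part of liver or gut tissue in the miR-122 difference was not tested.

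**Figure D5:**
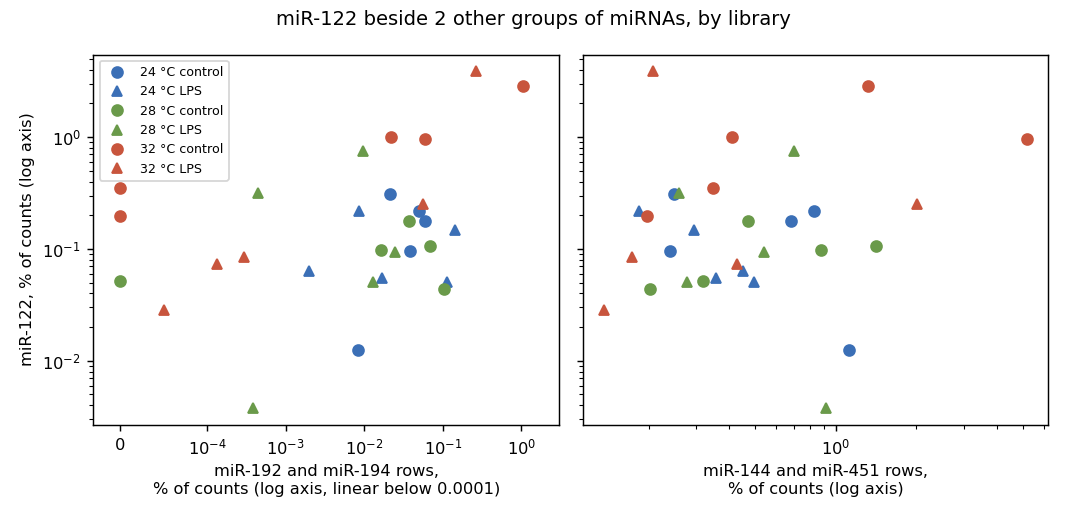
Share of counts held by miR-122 in each library against the share of miR-192 and miR-194 and of the red-cell miRNAs miR-144 and miR-451. Axes are logarithmic, and that of miR-192 and miR-194 is linear below 0.0001%. The 2 libraries richest in miR-122, at 3.86 and 2.86% of counts, also have the 2 highest shares of miR-192 and miR-194, 0.266 and 1.05%.

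Vascular and stromal families (miR-126, miR-143, miR-145, miR-199 and miR-214) had 24 tested rows, of which 4 passed as higher and 0 as lower between 32 and 24 °C, where 14.0% of all rows passed as higher. The 4 of 24 are a share near that of all rows. Of the 24 rows 17 had a log2 difference above 0, where 62.9% of all rows did. Their median log2 difference was 1.06, beside 0.81 for all rows. The most abundant, miR-143 of smooth muscle and stroma, differed by 2.86 ± 0.47 (edgeR, adjusted p = 0.000159), and miR-126b-3p, of an endothelial family, by 2.64 ± 0.55 (adjusted p = 0.00123). Their summed share reached 17.5% in replicate 7 of the 32 °C controls, where the red-cell families held 5.19%. That library had 9519 CPM of miR-122. Their part in its miR-122 value was not tested.

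A total of 26 rows of the table carried the name miR-122 with some species prefix. The zebrafish row held 244713 counts, and the other 25 together 0.0874% of all miR-122 counts. Counts in 6 of these 25 came from the 2 deepest of the 32 °C controls, 193 from replicate 7 and 21 from replicate 8, and the other 19 rows were at 0. The most frequent was mmu-miR-122-3p, named after the mouse 3' arm, with 79 counts, followed by hsa-miR-122b-3p with 40 and ssa-miR-122-2-3p with 37. gmo-miR-122-3p had 28 counts, hsa-miR-122b-5p 20 and mmu-miR-122b-5p 10. Rows named after other species are uncertain, because counting can divide reads between near-identical sequences. The sum of all 26 rows in place of the zebrafish row changed no call. In the zebrafish annotation GRCz12tu the gene mir122 lies between the protein-coding genes alpk2 and nedd4l, with a long non-coding RNA gene on each side.

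The other rows were ranked by how alike their pattern was to that of miR-122 across libraries, which share depth and incubation temperature. Among 268 tested rows counted in at least 15 libraries, Spearman's rho with miR-122 over 30 libraries had a median of 0.120 and ran from -0.654 to 0.609. The 5 most alike were ccr-miR-10c (0.609), named after the common carp form of a Hox-cluster miRNA, miR-145-3p (0.589), the lesser arm of a smooth-muscle miRNA, miR-7a (0.578), an endocrine and neural miRNA, miR-733 (0.575) and miR-30e-3p (0.565). In that order they were counted in 21, 28, 18, 15 and 30 of the 30 libraries. For ccr-miR-10c, miR-7a and miR-733, rho thus partly ranks libraries with counts above those without. miR-145-3p averaged 1357 ± 1104 CPM at 32 °C and 346 ± 410 at 28 °C. Within temperatures the likeness was not even, since ccr-miR-10c had rhos of -0.106, 0.356 and 0.745 within the 24, 28 and 32 °C libraries (n = 10 each), and miR-30e-3p had 0.164, 0.806 and 0.782.

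Among rows of the lists, the 4 highest in likeness were of the vascular and stromal families. After miR-145-3p, which ranked second, came mmu-miR-145a-3p (0.549, ranked 6th), ssa-miR-145-3p (0.546, ranked 7th) and ccr-miR-126-3p (0.509, ranked 12th). Rows with the same miRNA name under several species prefixes are not independent of each other. Their list also had the most tested rows, 24, and its rows did not all go this way. dre-miR-145-5p, the other arm, had 0.116 (ranked 137th), dre-miR-214 -0.225 (ranked 222nd) and dre-miR-199-5p -0.311 (ranked 236th). The leukocyte row miR-142a-3p had 0.493 and ranked 14th. Other list rows ranked lower. dre-miR-192 had a rho of 0.373 and ranked 45th, gmo-miR-192-5p had 0.272 and ranked 89th, the pancreas miRNA miR-375 had 0.258, and the red-cell miRNA miR-451 had 0.0808. At the other end stood chr13_7690, a row named by chromosome only (-0.654), hsa-miR-1260b (-0.573) and mmu-miR-6239 (-0.561), which were named after their values were seen.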

How the data were processed

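The authors deposited 1 table of raw read counts, with miRNA rows and 30 library columns, which all values here start from. Per the labels' protocols, 50 ng of RNA went into each library, the adapters carried 4 random bases, and 22 cycles of PCR followed. No removal of PCR copies is recorded, so the exact binomial intervals, which cover counting error only, may be too narrow. The edgeR intervals also cover the spread between libraries. Tools named in the submitters' processing notes, without roles, are DESeq2 1.11.1, FastQC 0.11.5, cutadapt 1.12 and bcl2fastq. Aligner, counting tool, genome build and miRNA set: not given in the sources used here. No mature sequence was used.

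A low-count filter (filterByExpr of edgeR, 6 groups) left 364 of 8866 rows with 99.8% of the counts, and TMM set the scaling. One edgeR 4.0.16 quasi-likelihood model (robust, 24 residual degrees of freedom, R 4.3.3) gave each contrast, with p-values adjusted by Benjamini-Hochberg over all 364 rows and called under 0.05. That test returns no SE. Each SE was derived as the absolute log2 difference over the square root of the test's F value. The 95% intervals were built from it with a t distribution of 24 degrees of freedom, so SEs and intervals are approximate. The fit was also run on simulated counts, whose outcome is not given here. They had the same dispersion for all rows and no single extreme libraries, so that run does not bear on the calls of miR-122. Two-sided permutation tests (scipy 1.17.1) used log2(CPM + 10) or log2 ratios of counts with 1 added, exact for 5 against 5 libraries and with 100000 draws for 10 against 10. Alternatives were DESeq2 1.42.0, limma 3.58.1 voom, other scalings, filters, rows, covariates and libraries left out. After the data were seen 4 were added: leaving out the 2 deepest libraries, TMM without miR-122 rows, TMMwsp scaling, and leaving out single libraries with scaling held.

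The rows named are those called miR-122, the 2 most abundant rows of each list, the 5 most like miR-122 and its neighbours in level. Values of other miR-192, miR-145, miR-126, miR-199 and miR-214 rows, miR-142a-3p and the most-unlike rows were added later. The member and the lists were chosen with earlier results of these data known. Replicate numbers were not taken as pairing. Libraries of the same number were somewhat more alike, with a median correlation of 0.151 against -0.0387 for different numbers. The check is given with the alternatives, with a fit that took the numbers as a block and lost calls of temperature.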

Additional observations from a re-analysis of the deposited data

Results flagged for a closer look

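In 12 of 57 groups of library values, 1 library stood far from the others of its group, its gap to the nearest being large against the group's range (Dixon's 95% limit). For normally spread values in separate groups, chance alone would flag about 1 group in 20. The flagged values were CPM or shares of counts, which were often skewed, and some groups shared libraries. That rate therefore does not apply to the 12 of 57. The flags were on the CPM and share scales, not on the log2(CPM + 10) scale of the permutation tests. Of miR-122 itself, replicate 7 of the 32 °C LPS fish had 38639 CPM where the next library had 2498, and over both treatments at 28 °C replicate 8 of the LPS fish had 7431 CPM where the next had 3137.

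Among the lists set beside miR-122, miR-192 and miR-194 held 0.266% of the counts in replicate 7 of the 32 °C LPS fish (next 0.0561%) and 1.05% in replicate 9 of the 32 °C controls (next 0.0586%). The red-cell families held 5.19% in replicate 7 of the 32 °C controls and 2.01% in replicate 5 of the 32 °C LPS fish. Vascular and stromal families held 17.5% in replicate 7 of the 32 °C controls, where the next library had 4.37%. Pancreas families held 0.297% in replicate 1 of the 28 °C LPS fish, the library poorest in miR-122. Epithelial families held 0.241% in replicate 3 of the 24 °C controls. Muscle families held 0.395% in replicate 8 of the 24 °C controls, 0.0333% in replicate 8 of the 24 °C LPS fish and 0.438% in replicate 4 of the 28 °C LPS fish.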

How the results depend on the processing

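Of 355 values under alternatives that left out no single library, 308 were counted as unchanged, 16 lost a call, 10 gained one and 21 changed sign. None of those that changed sign had passed. Unchanged values kept their direction and their side of the threshold, or for joint tests their side alone. For the mean CPM of each of the 6 groups, it meant a shift smaller than the group's SD. Values that had not passed and still did not pass are among the unchanged. Causes were not tested. With 5 libraries a group and a within-group SD near 1.92 on the log2 scale, small differences of miR-122 lie under what these data can show, and the shallowest libraries add counting error.

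The difference of 32 from 24 °C kept its call except with the library total as covariate (2.40) and with the replicate block (1.90). That of 32 from 28 °C missed the threshold with RLE (2.55), total-count (2.66), upper-quartile (2.56) or TMMwsp scaling (2.56), TMM without miR-122 rows (2.46), zebrafish rows alone (2.32), only the groups compared (2.61), the replicate block (1.73), and without the 4 (2.98) or 2 (2.84) deepest libraries. In controls, 32 minus 24 °C passed with DESeq2 (2.69) and voom (3.64), and 32 minus 28 °C with DESeq2 (3.46), voom (4.07) and only the groups compared (3.25). In LPS fish 32 minus 24 °C passed with DESeq2 (2.85).

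Signs changed for 28 minus 24 °C with the covariate (-0.24), and in controls without a count filter (0.19) or with TMMwsp (0.14). LPS minus control changed with voom (-0.88), the covariate (-0.34), the replicate block (-0.067) and without the 4 deepest libraries (-0.14). Its difference between 32 and 24 °C changed with DESeq2 (0.16), RLE (0.16), total counts (0.28), upper quartile (0.32), no filter (0.14), zebrafish rows (0.22), the covariate (0.21), without the 4 (0.60) or 2 (0.17) deepest libraries, with TMMwsp (0.017) and with TMM without miR-122 rows (0.20).

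In permutation tests TMM-scaled CPM gave the calls 2.34, 2.34, 3.10 and 3.39 named in the report; 28 minus 24 °C in LPS fish changed sign with a pseudocount of 50 (0.12) or TMM-scaled CPM (0.29), and LPS minus control at 28 °C without the 4 deepest libraries (-0.70). The leukocyte ratio of 32 to 28 °C missed the threshold without the 4 deepest libraries (2.40, permutation test, adjusted p = 0.0673). The relation to library totals was not called within 24 °C (0.163) or 32 °C (0.111).

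Replicate numbers shared by groups were checked as pairs. Libraries of the same number correlated in their deviations at -0.392 to 0.607 (43 pairs, median 0.151, 62.8% above 0.1), against a median of -0.0387 for libraries of different number. The labels give the numbers no meaning, so they were not taken as pairing, although the medians differ. The check cannot decide whether they are pairs, because noisy deviations can keep true pairs under 0.1. As a replicate block the numbers took the joint test of temperature to an adjusted p of 0.120.

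Leaving out 1 library at a time was run with the scaling recomputed and with it held, because TMM chose another reference library in 24 of 30 recomputed fits. Over both, the log2 differences ran as follows. Recomputed, the call of 32 against 28 °C was lost in 16 fits, each without 1 of these libraries: the 5 named in the report, replicates 1 and 5 of the controls and 8 of the LPS fish at 24 °C, replicates 3, 5 and 7 of the controls and 2 of the LPS fish at 28 °C, and replicates 3 and 7 of the controls and 2 and 5 of the LPS fish at 32 °C. That of 32 against 24 °C in controls was gained without replicate 5 of the 28 °C LPS fish, replicate 3 of the 32 °C controls, or replicate 2 or 7 of the 32 °C LPS fish, and the joint call was lost without the last. Without replicate 1 of the 32 °C LPS fish the permutation calls of 32 against 24 and 28 °C pooled and against 28 °C in controls were gained (adjusted p = 0.0467). Averaged over treatments, 32 minus 24 °C ran from 2.03 to 3.77, 32 minus 28 °C from 1.02 to 3.33 and 28 minus 24 °C from -0.16 to 1.27. LPS minus control ran from -0.72 to 0.38, and by temperature from -1.24 to 0.26 at 24 °C, 0.37 to 1.80 at 28 °C and -3.37 to 0.21 at 32 °C. In controls the 3 pairs ran from 2.47 to 4.08 (32 and 24 °C), 2.65 to 4.21 (32 and 28 °C) and -1.04 to 0.66 (28 and 24 °C). In LPS fish they ran from 0.36 to 3.73, -1.35 to 2.81 and 0.35 to 2.13. The LPS effect ran from -3.45 to 0.81 for 32 against 24 °C. The joint test of temperature ran from an adjusted p of 0.000506 to 0.0586. Permutation differences ran, for 32 from 24 °C, 32 from 28 °C and 28 from 24 °C, from 1.46 to 2.24, 1.57 to 2.44 and -0.54 to 0.27 pooled, from 2.57 to 3.54 for 32 from 28 °C in controls, from -1.12 to 0.0060 for 28 from 24 °C in controls, and from -0.13 to 1.63, -0.11 to 1.77 and -0.79 to 1.03 in LPS fish. LPS minus control ran from -1.03 to 0.094 at 24 °C and -0.70 to 1.117 at 28 °C. At 32 °C it ran from -3.116, without replicate 7 of the LPS fish, to -1.355. It kept its sign in all fits and passed in none (exact permutation tests, lowest adjusted p = 0.0714). The leukocyte ratio of 32 to 28 °C ran from 1.79 to 2.74, and the red-cell ratio of 28 to 24 °C from -0.95 to 0.12.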

Other observations

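Other groups of organ miRNAs were measured beside miR-122. Pancreas families (miR-216, miR-217 and miR-375) in the 24, 28 and 32 °C libraries held 0.266 ± 0.351%, 0.114 ± 0.0736% and 0.189 ± 0.175% of the counts (SD, n = 10 each). Their main row, miR-375 of islets, differed between 32 and 24 °C by -0.17 ± 0.61 on the log2 scale (edgeR, adjusted p = 0.858), and ccr-miR-217, named after an acinar miRNA of the common carp, by 1.19 ± 1.45 (adjusted p = 0.60). Of 4 tested pancreas rows 1 passed as higher, where 14.0% of all rows did. The median log2 difference of the 4 was 1.76, beside 0.81 for all rows.

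Epithelial families (miR-200, miR-429, miR-141, miR-203 and miR-205) held 0.0552 ± 0.0735%, 0.0551 ± 0.0654% and 0.0970 ± 0.113% at 24, 28 and 32 °C, and 2 of 10 tested rows passed as higher between 32 and 24 °C, a share near the 14.0% of all rows. All 10 had a log2 difference above 0, where 62.9% of all rows did. Their median was 3.51, beside 0.81 for all rows. Of the most abundant epithelial rows, the skin miRNA miR-203a-3p differed by 0.08 ± 1.47 (edgeR, adjusted p = 0.973) and miR-205-5p by 0.29 ± 1.54 (adjusted p = 0.903). Striated-muscle families (miR-1, miR-133, miR-206 and miR-499) were at or near 0 in many libraries, with a median share of 0.00932%, and 0 of 3 tested rows passed, where 16.5% of all rows did. Their main rows, miR-1 and miR-206-3p, differed by 3.30 ± 1.62 (adjusted p = 0.154) and 2.31 ± 1.58 (adjusted p = 0.313). No row of the 7 lists passed for LPS against control (edgeR), where 0.549% of all rows passed.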
